A study of Mus musculus with 2 samples.

Results

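The EGR, NR4A and IER immediate early genes with Srf were read from chromatin-associated RNA of mouse bone marrow-derived macrophages, cells grown in culture from C57BL/6J marrow and treated with lipid A at 100 ng/ml for 75 min. Lipid A, the membrane anchor of lipopolysaccharide, binds the TLR4 complex, and the chromatin fraction holds RNA that is still being made, processed or retained at the gene. The 10 genes were chosen by name (Egr1, Egr2, Egr3, Nr4a1, Nr4a2, Nr4a3, Ier2, Ier3, Ier5 and Srf) and all were found among the 55536 annotated genes of the deposited tables, 22028 of them protein-coding. There was 1 group of 2 ribosomal RNA-depleted total RNA libraries, labelled as biological replicates: replicate 2, made from 500 ng of RNA, and replicate 1, made from 250 ng, both with fragments of 250 to 400 bases. A single donor label covers both libraries, and the labels do not say whether separate mice were used, so an SD may describe cultures or technical spread rather than animals. No untreated cells, other times or other fractions were analysed here: the values are levels at 75 min, with no contrast between conditions and no test.

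Immediate early genes are transcribed within minutes of a stimulus without new protein synthesis. In macrophages, TLR4 signalling reaches them through ERK and p38 MAP kinases and through NF-kappaB. SRF is a constitutive DNA-binding protein that sits on CArG boxes and is switched by ternary complex factors such as ELK4 or by the actin-sensing MRTF proteins. EGR proteins are zinc finger transcription factors, which the NAB proteins hold in check. NR4A proteins are orphan nuclear receptors whose ligand pocket is filled by bulky side chains, so their activity follows their amount. The IER genes share a name for early induction, and their proteins differ in function.

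The region upstream of the transcription start carries the sites through which such genes are known to be switched, so the upstream windows of 6 members are printed here, 1 window each. They are taken from RefSeq starts on GRCm38.p6, read 5′ to 3′ on the gene's strand; each runs from 250 bases upstream of the start to the start or, where an annotated exon begins earlier, to that exon. Capitals mark the letters that matched a searched motif on either strand. Egr2 is at chr10:67537619-67537868 (plus strand), Srf at chr17:46556176-46556412 (minus strand), Nr4a1 at chr15:101266596-101266845 (plus strand), Nr4a2 at chr2:57124004-57124253 (minus strand), Nr4a3 at chr4:48045055-48045152 (plus strand) and Ier3 at chr17:35821463-35821683 (plus strand).
Egr2: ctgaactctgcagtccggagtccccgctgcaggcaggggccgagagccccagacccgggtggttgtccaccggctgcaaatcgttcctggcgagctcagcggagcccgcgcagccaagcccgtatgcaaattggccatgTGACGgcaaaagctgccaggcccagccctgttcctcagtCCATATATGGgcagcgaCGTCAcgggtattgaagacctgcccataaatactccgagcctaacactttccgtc
Srf: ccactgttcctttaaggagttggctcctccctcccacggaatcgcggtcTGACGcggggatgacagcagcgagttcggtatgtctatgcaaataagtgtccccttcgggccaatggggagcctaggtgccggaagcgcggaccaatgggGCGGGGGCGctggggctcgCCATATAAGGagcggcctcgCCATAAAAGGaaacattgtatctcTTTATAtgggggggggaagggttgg
Nr4a1: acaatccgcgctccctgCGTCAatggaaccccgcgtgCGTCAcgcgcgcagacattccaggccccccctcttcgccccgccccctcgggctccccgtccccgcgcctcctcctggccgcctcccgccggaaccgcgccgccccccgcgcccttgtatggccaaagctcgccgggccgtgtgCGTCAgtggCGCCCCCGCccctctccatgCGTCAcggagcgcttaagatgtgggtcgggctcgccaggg
Nr4a2: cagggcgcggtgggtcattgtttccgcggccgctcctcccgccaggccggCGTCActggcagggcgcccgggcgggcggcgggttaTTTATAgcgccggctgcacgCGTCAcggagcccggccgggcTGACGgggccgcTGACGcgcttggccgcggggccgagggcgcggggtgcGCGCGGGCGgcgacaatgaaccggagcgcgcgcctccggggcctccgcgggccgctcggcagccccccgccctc
Nr4a3: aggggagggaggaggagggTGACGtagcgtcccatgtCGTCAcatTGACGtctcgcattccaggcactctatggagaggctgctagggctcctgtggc
Ier3: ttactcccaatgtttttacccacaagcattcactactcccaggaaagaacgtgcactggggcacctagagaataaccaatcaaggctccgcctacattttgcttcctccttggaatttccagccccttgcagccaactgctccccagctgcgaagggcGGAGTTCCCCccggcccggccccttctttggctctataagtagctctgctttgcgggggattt

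The CArG box, the letters that SRF binds, was found upstream of Egr2, as CCATATATGG 72 to 63 bases before the start, and upstream of Srf itself, as CCATATAAGG 82 to 73 bases and CCATAAAAGG 62 to 53 bases before the start. Another Egr2 start, farther upstream, had CCTTTTTTGG in its own window, which is not printed, also 72 to 63 bases before the start. The Egr2 start farthest upstream had no match to any searched motif in its window. Of 32851 RefSeq windows of 250 bases, 1.47% held a CArG box. This share is per window, and a gene with several starts, such as Egr2, has several windows. Each of the 3 NR4A windows held 4 matches to TGACG, the core of the cAMP response element. Of all windows, 17.8% held at least 1 match, and the share with 4 was not counted. The Egr2 window held 2 such matches and the Srf window held 1. In Nr4a3 the last of the 4 lies 147 to 143 bases before the start, inside an annotated exon, and is not in the printed stretch. The EGR site GCGNGGGCG was matched upstream of Nr4a1, Nr4a2 and Srf, against 4.70% of all windows. Both TGACG and the EGR site contain the letters CG (CpG). The full windows held 44 CpG for Nr4a2, 34 for Nr4a1, 18 for Nr4a3 and 17 each for Egr2 and Srf. The median of all windows was 6, so the shares of all windows are not matched for CpG. A kappaB site was matched upstream of Ier3, 92 to 83 bases before its start on the opposite strand, against 3.90% of windows. TATAAA was matched on the opposite strand upstream of Nr4a2 and Srf (12.4% of windows), and TGANTCA, an AP-1 site, was not matched in any printed window (6.75% of windows). All motifs were searched on both strands, and the CArG and kappaB motifs contain ambiguous letters and are given by name. Ier5 had a window with no match to these motifs, and 7 of the 10 genes had a window in the table used. These are letters in a window; no binding was measured.

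Levels were read as TPM, a length-normalised share of transcripts, which divides counts by effective length and by the total of the table, so that genes can be set side by side. Of the 10 genes, 8 reached 1 TPM in each library, the threshold used here for an expressed gene. Over all protein-coding genes the share was 34.7%. The median of the 10 genes was 5.70 TPM in replicate 2 and 3.35 TPM in replicate 1, below the medians of the 7633 expressed protein-coding genes, which were 10.4 and 5.82 TPM in the same libraries. Here and in later comparisons with expressed genes, the 10 genes include 2 below the 1 TPM threshold, so the sets are unlike. Every one of the 10 genes had a higher TPM in replicate 2. This held for expressed protein-coding genes in general, whose median ratio of TPM + 1 was 1.59, replicate 2 over replicate 1. Protein-coding genes took 24.99% of all TPM in replicate 2 and 14.0% in replicate 1. When TPM was rescaled to protein-coding genes alone, 3 of the 10 genes (Ier3, Nr4a2 and Nr4a3) were higher in replicate 2 and 7 were lower.

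**Figure D1:**
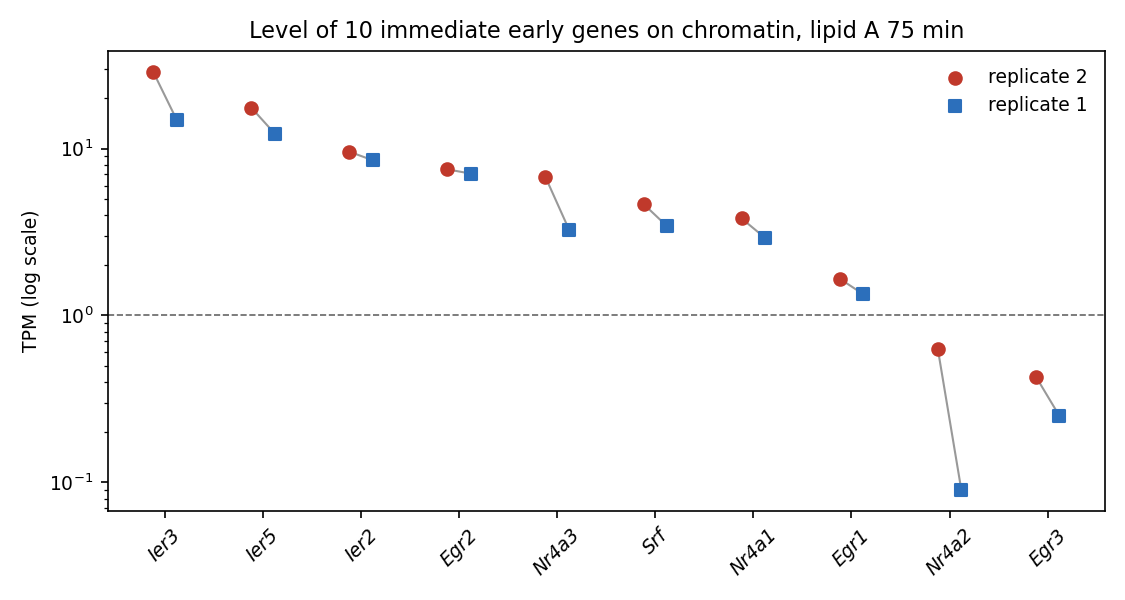
TPM of each gene on a log axis in replicate 2 (circles) and replicate 1 (squares), ordered by the mean; the dashed line is 1 TPM. Ier3 and Ier5 lead at 12.3 TPM or more, and Nr4a2 and Egr3 lie below 1 TPM in both libraries.

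In the gene table the 3 IER genes had the highest mean levels of the 10 genes. In the second quantification, described below, this held for Ier3 and Ier5 but not for Ier2. Ier3, which encodes a stress-inducible regulator of cell survival and a known NF-kappaB target, had 28.9 TPM in replicate 2 and 14.9 TPM in replicate 1, or 21.9 ± 9.89 TPM (SD, n = 2), from 822 and 391 counts. That level exceeded those of 75.4% of expressed protein-coding genes. Ier5, which encodes a nuclear regulator of the heat shock factor HSF1, had 17.6 TPM in replicate 2 and 12.3 TPM in replicate 1 (14.9 ± 3.76 TPM), from 1704 and 1105 counts, the largest counts among the 10 genes. Ier3 was above Ier5 within each library. Their ranges over the 2 libraries overlapped, as replicate 1 of Ier3 lay below replicate 2 of Ier5. Ier2, which encodes a small nuclear protein with a role in transcription, had 9.57 TPM in replicate 2 and 8.5 TPM in replicate 1 (9.04 ± 0.757 TPM), below Ier5 in both libraries. The 3 IER genes held 68.8% of the summed TPM of the 10 genes in replicate 2 and 66.0% in replicate 1.

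The EGR genes differed widely among themselves. Egr2, also known as Krox20 and required for myelination by Schwann cells, had 7.5 TPM in replicate 2 and 7.07 TPM in replicate 1 (7.29 ± 0.304 TPM), from 638 and 553 counts. Egr1, the founding member and a common marker of ERK activity, had 1.66 TPM in replicate 2 and 1.34 TPM in replicate 1 (1.5 ± 0.226 TPM), from 162 and 119 counts. Only 3.09% of expressed protein-coding genes lay below Egr1, and its range did not overlap that of Egr2. Egr3, known for its role in T cell tolerance and muscle spindles, had 0.430 TPM in replicate 2 and 0.25 TPM in replicate 1 (0.340 ± 0.127 TPM). It was read from 44 counts in replicate 2 (95% exact Poisson interval 31.97 to 59.1) and 26 in replicate 1 (17.0 to 38.1), so it was detected but not expressed by the threshold used. The intervals cover counting error only.

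The NR4A genes also differed among themselves. Nr4a3, which encodes NOR1, had 6.74 TPM in replicate 2 and 3.27 TPM in replicate 1 (5.01 ± 2.45 TPM), from 566 and 189 counts. Nr4a1, which encodes NUR77, needed for the patrolling monocyte subset, had 3.81 TPM in replicate 2 and 2.91 TPM in replicate 1 (3.36 ± 0.636 TPM), from 254 and 152 counts. Nr4a2, which encodes NURR1, a factor of midbrain dopamine neurons, had 0.630 TPM in replicate 2 and 0.0900 TPM in replicate 1 (0.360 ± 0.382 TPM). Its counts were 55 in replicate 2 (41.4 to 71.6) and 8 in replicate 1 (3.45 to 15.8), and these intervals did not overlap. The authors' deposited credibility interval for Nr4a2, whose level is not stated, ran from 0.546 to 6.99 TPM in replicate 2. In replicate 1 it ran from 0.0980 to 7.49 TPM. Both upper bounds lay far above the point values, and the replicate 1 point value lay below its own lower bound. Unlike the Poisson intervals, the credibility intervals of the libraries overlapped. Srf, which encodes the serum response factor, had 4.65 TPM in replicate 2 and 3.42 TPM in replicate 1 (4.04 ± 0.870 TPM), from 211 and 166 counts. The ranges of Srf overlapped those of Nr4a3 above it and Nr4a1 below it, and Nr4a2 overlapped Egr3. Apart from these and the pair of Ier3 and Ier5, neighbours in the order did not overlap. These are ranges of point values, and the credibility intervals of some such neighbours, Ier2 and Egr2 among them, overlapped within each library. Within each library Srf was above Nr4a1, whereas its order with Nr4a3, and that of Nr4a2 with Egr3, changed between the libraries.

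A difference between the 2 libraries describes the libraries and not a condition. The 10 genes were set against the other genes by the log2 ratio of TMM-scaled counts, replicate 2 over replicate 1, where TMM is a scaling that assumes most genes do not differ. Among 10981 protein-coding genes whose counts summed to at least 20, 4.92% were higher by 2-fold or more in replicate 2 and 5.57% were lower. Of the 10 genes, 1 was higher by that much, Nr4a2, at a log2 ratio of 1.63, and 0 were lower. The remaining 9 genes lay between -0.87 (Egr2) and 0.50 (Nr4a3), with Ier2 at -0.79, Srf at -0.73, Egr1 at -0.63 and Ier3 at -0.01. Their median with Nr4a2 was -0.39, against -0.12 for expressed protein-coding genes, whose quartiles were -0.48 and 0.27. By TMM scaling, 8 of the 10 genes were below 0 and 2 above, whereas with library size alone 4 were below 0 and 6 above, and the median of expressed protein-coding genes moved to 0.49. RNA input, depth (29638814 counts on annotated genes in replicate 2 and 21453617 in replicate 1) and the protein-coding share of counts (66.2% and 47.0%) all moved with the replicate and cannot be told apart from it.

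**Figure D2:**
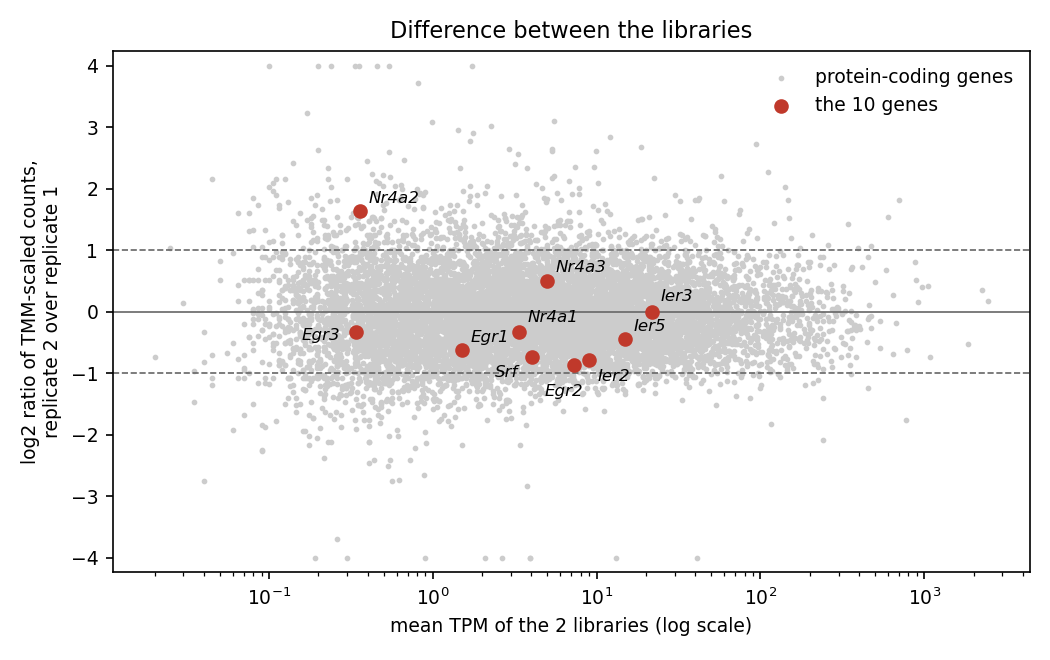
The log2 ratio of TMM-scaled counts, replicate 2 over replicate 1, against the mean TPM (log axis) for protein-coding genes whose counts summed to at least 20 (grey) and the 10 genes (red); dashed lines mark 2-fold, and 17 genes past a log2 ratio of 4 in size are drawn at the edge. Nr4a2 at 1.63 lies outside the lines and the other 9 genes lie between them.

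The Nr4a2 difference depended on the quantification. In the second quantification, a further deposited table made from the reads and a transcript index, Nr4a2 had 180.5 counts in replicate 2 and 58.0 in replicate 1, or 4.98 and 1.01 TPM, and its log2 ratio was 0.42. These counts were 3.28 times those of the gene table in replicate 2 and 7.25 times in replicate 1. Of expressed protein-coding genes, 7.52% had a ratio at least that high in replicate 2 and 0.891% in replicate 1. Those genes reached the TPM threshold in the gene table and Nr4a2 did not, and genes of similarly low count were not compared. Most of the Nr4a2 TPM of the second quantification in replicate 2, 3.48 of it, came from 7 counts on Nr4a2-204, a processed transcript model of 182 bases. Its counts lay mostly on longer models. In replicate 2, Nr4a2-202, Nr4a2-203 and Nr4a2-206 held 61.9, 53.9 and 39.2 counts, against 0, 21.5 and 13.1 in the gene table. Nr4a2-201 held 15.3 against 17.2. For the other 9 genes the second quantification gave 1.105 to 1.96 times the counts of the gene table across the 2 libraries. The median over the 10 genes was 1.34 in replicate 2 and 1.39 in replicate 1, against 1.68 and 1.71 for expressed protein-coding genes. In that quantification Egr2, with 7.49 TPM in replicate 2 and 9.48 TPM in replicate 1, was the member past 2-fold, at a log2 ratio of -1.13.

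**Figure D3:**
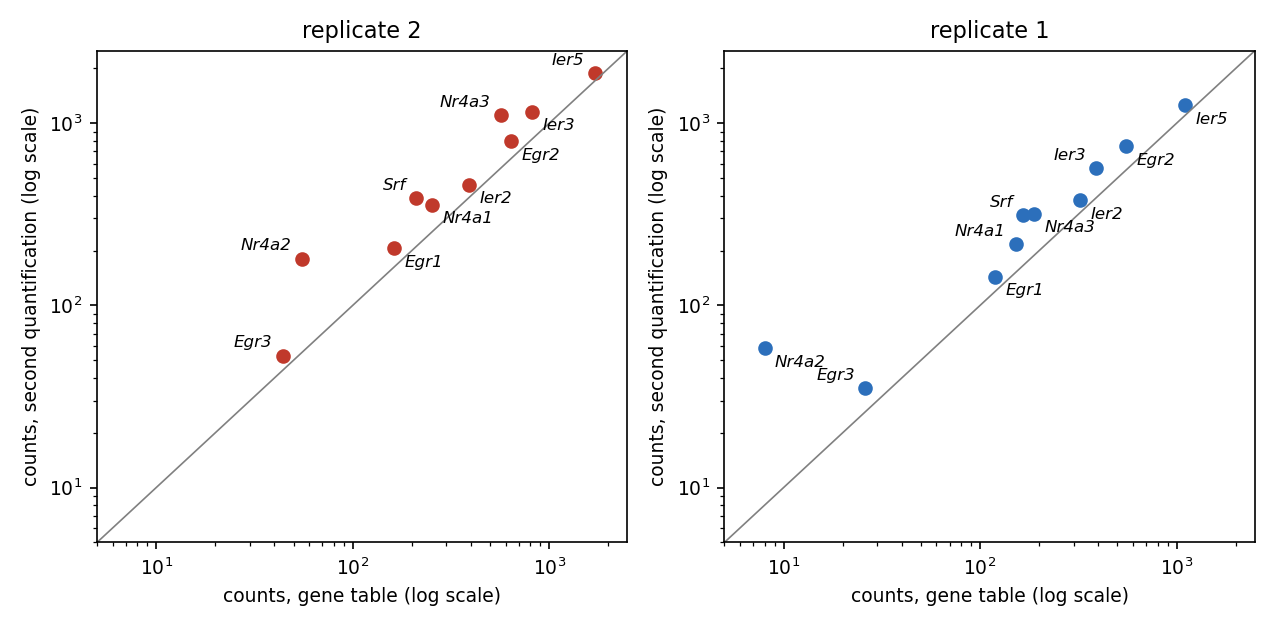
Estimated counts of the 10 genes in the second quantification against those of the gene table, both on log axes, in replicate 2 (left) and replicate 1 (right); the line marks equal counts. All genes lie above the line, and Nr4a2 lies farthest from it, at 3.28 times in replicate 2 and 7.25 times in replicate 1.

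Short transcript models also set the level of other members in the second quantification. Nr4a1 had 9.00 TPM there in replicate 2 and 4.41 TPM in replicate 1, of which 5.41 and 2.14 TPM came from 37.96 and 15.2 counts on Nr4a1-203, a coding model of 344 bases. The gene table put 0 and 1 counts on that model. Srf had 10.3 TPM in replicate 2 and 7.66 TPM in replicate 1, with 4.21 and 3.53 TPM on Srf-203, a retained-intron model of 637 bases. Ier3 kept nearly the same level, with 28.5 TPM in replicate 2 and 13.9 TPM in replicate 1. The mean over the libraries placed Ier3 and Ier5 highest (21.2 and 11.6 TPM) and Egr3 lowest (0.478 TPM) in the second quantification too. By that mean Srf moved to 8.97 TPM, above Egr2 at 8.48 TPM and Ier2 at 7.22 TPM. In replicate 1 alone, Egr2 at 9.48 TPM was above Ier5 at 9.27 TPM.

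Chromatin RNA includes unspliced molecules, and the annotation holds models without a full coding sequence, called retained intron or processed transcript. Both quantifications count reads on annotated models, so an intron is counted only where a model includes it. Of the 10 genes, 5 had a retained-intron or processed-transcript model: Egr3, Nr4a1, Nr4a2, Nr4a3 and Srf. The share of the gene's TPM on such models was 63.2% in replicate 2 and 76.8% in replicate 1 for Nr4a3, 47.7% and 36.6% for Srf, and 9.19% and 16.2% for Nr4a1. It was 16.3% in replicate 2 and 72.0% in replicate 1 for Egr3 and 19.1% and 0% for Nr4a2, where low counts and TPM rounded to 2 decimals make the shares coarse. The median of the 5 genes was 19.1% in replicate 2 and 36.6% in replicate 1, and 42.2% when each gene was first averaged over the libraries. Averaged in that way, the median of 6443 expressed protein-coding genes with such a model was 49.3%, with quartiles of 30.7% and 66.0%. By expected counts, which are not divided by the length of the model, the median of the 5 genes was 10.5%.

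**Figure D4:**
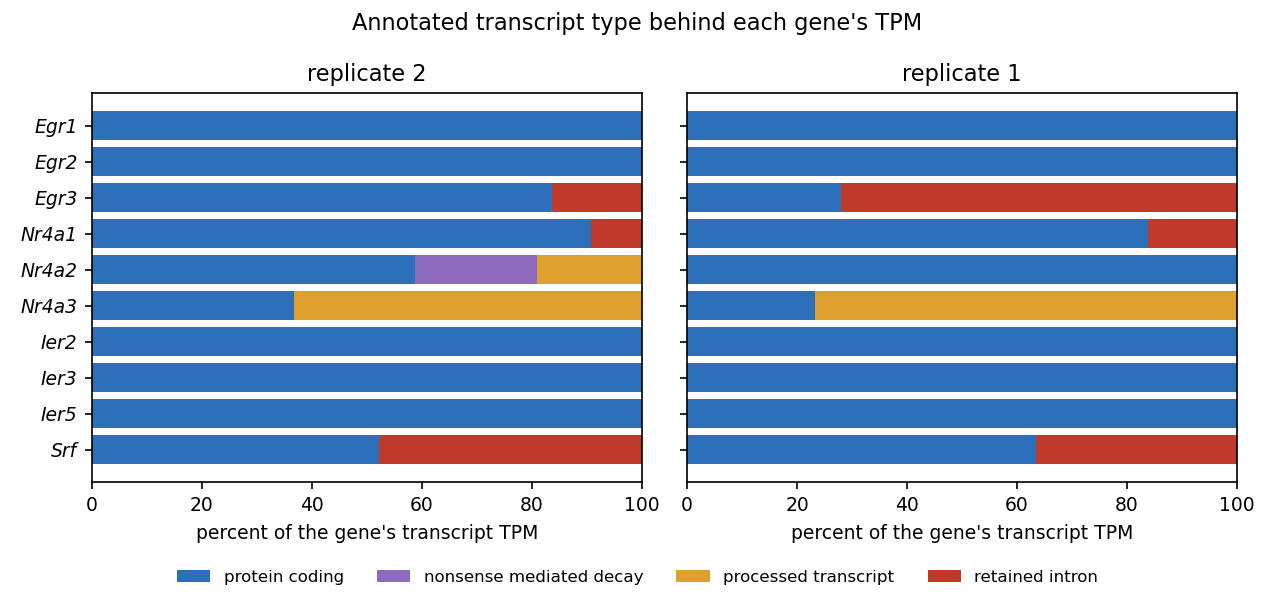
Percent of each gene's transcript TPM by annotated transcript type in replicate 2 (left) and replicate 1 (right). Nr4a3 has most of its TPM on processed transcripts in both libraries (63.2% and 76.8%), and Egr1, Egr2, Ier2, Ier3 and Ier5 have only protein-coding models.

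The Nr4a3 share came largely from Nr4a3-202, a processed transcript of 3 exons and 1290 bases inside the gene, with 4.26 TPM from 143 counts in replicate 2 and 2.07 TPM from 64.1 counts in replicate 1. The full-length coding model Nr4a3-201, of 5720 bases, held 345 counts in replicate 2 and 63.6 in replicate 1. By counts Nr4a3-201 was ahead in replicate 2, and the models were nearly equal in replicate 1. With retained-intron and processed-transcript models left out, Nr4a3 had 2.48 TPM in replicate 2 and 0.760 TPM in replicate 1, and Nr4a1 had 3.46 and 2.44 TPM, which turned the order of this pair round. For Srf, 184 counts fell on the coding model Srf-201 in replicate 2 and 152 in replicate 1, and the retained-intron models Srf-203 and Srf-204 together held the rest. In Egr3, 19.2 of the 26 counts of replicate 1 were put on the retained-intron model Egr3-202, against 8.21 of the 44 counts of replicate 2.

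Several models of 1 gene also differ in their start. Egr1-202, which begins downstream of the start of Egr1-201, took 81.8% of the TPM of Egr1 in replicate 2 and 85.8% in replicate 1, from 121 and 95 counts. In Egr2, the model Egr2-201, which begins at the start whose upstream window is printed above, took 76.4% in replicate 2 and 70.9% in replicate 1. Egr2-203, which begins farther downstream, took 17.7% in replicate 2 and 29.1% in replicate 1. In the second quantification Egr2-201 took 57.0% in replicate 2 and 35.9% in replicate 1. Egr2-204 and Egr2-202 begin right beside the start of Egr2-201, so part of that lower share stayed at nearly the same start. There Egr2-204 took 9.99% in replicate 2 and 28.8% in replicate 1, and Egr2-202 took 2.03% and 0%. The share of Egr2-203 was higher than in the gene table in replicate 2 and nearly the same in replicate 1. For Nr4a1, Nr4a1-201, which begins at the start whose window is printed, took 90.8% in replicate 2 and 73.5% in replicate 1. In the second quantification it took 30.4% and 34.8%, and the short Nr4a1-203 led with 60.1% and 48.6%. Both models begin at the same base, so this shift was not one between starts. How reads were shared between overlapping models is an estimate of the quantifier and was not measured directly.

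The genes are compact. On mm10 with GENCODE M21 annotation, 7 of the 10 spanned under 10 kb, a span found for 20.7% of expressed protein-coding genes, and the median span was 6063 bases against 26734. Ier3 (chromosome 17, 35821684 to 35822923, plus strand) spans 1240 bases in 2 exons. Ier2 (chromosome 8, 84661331 to 84662852, minus strand) and Ier5 (chromosome 1, 155096361 to 155099636, minus strand) are each annotated as 1 exon, of 1522 and 3276 bases. For a gene with 1 exon, spliced and unspliced RNA cannot be told apart. Egr1 (chromosome 18, 34859823 to 34864984), Egr2 (chromosome 10, 67535475 to 67542188) and Egr3 (chromosome 14, 70077203 to 70082614) lie on plus strands and span 5162, 6714 and 5412 bases. Srf (chromosome 17, 46548329 to 46556175, minus strand) spans 7847 bases. The NR4A genes are longer: Nr4a1 (chromosome 15, 101254269 to 101274795, plus strand) spans 20527 bases, Nr4a2 (chromosome 2, 57106830 to 57124003, minus strand) 17174 bases and Nr4a3 (chromosome 4, 48045153 to 48086447, plus strand) 41295 bases.

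Sequence shared with other genes was a small part of these transcripts. The posterior SD of the gene count in the authors' table was 0 for all 10 genes in both libraries, as it was for 67.6% of expressed protein-coding genes in replicate 2 and 69.1% in replicate 1. Of the sequences of 31 bases in their transcripts, 0 were shared with another gene for Egr1, Nr4a1, Ier2, Ier3 and Srf, and at most 0.523% (Egr3) for the others. Egr2 and Egr3 shared 14 such sequences. The shared sequences of Nr4a2, 0.268% of its own, occurred in 2700 other genes, and those of Nr4a3, 0.452%, in 203. The sources used here do not say whether the counting used strand. Srf is overlapped on the opposite strand by the lincRNA gene Gm26904, which had 18 counts in replicate 2 and 23 in replicate 1, so reads of the pair may not be separable. In the second quantification Gm26904 had 104.8 counts in replicate 2 and 61.5 in replicate 1, against 389 and 312 for Srf. Flot1, which encodes a membrane raft protein, lies 306 bases from Ier3 on the same strand and had 12.4 TPM in replicate 2 and 9.08 TPM in replicate 1, below Ier3 in both.

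The ERK and p38 route, listed as its kinases together with the nuclear factors Creb1, Crebbp and Ep300, had a higher median level than the 10 genes. All 16 genes of this list were expressed, with a median of 31.3 TPM in replicate 2 and 14.8 TPM in replicate 1. Mapkapk2, the p38-activated kinase that stabilises cytokine mRNA, had 131 TPM in replicate 2 and 64.8 TPM in replicate 1. Mapk14, which encodes p38 alpha, had 70.9 and 36.5 TPM, and Map2k1, the ERK kinase MEK1, had 45.7 and 34.6 TPM in the same libraries. Of these 16 genes, 1 was higher by 2-fold or more in replicate 2 by TMM-scaled counts and 1 was lower. Over all tested protein-coding genes, 4.92% were higher and 5.57% lower by that much. Map3k8, the kinase TPL2 that links TLR4 to ERK in macrophages, had 43.8 TPM in replicate 2 and 8.15 TPM in replicate 1, a log2 ratio of 1.56. Rps6ka1, an ERK-activated ribosomal S6 kinase, had 10.4 TPM in replicate 2 and 15.8 TPM in replicate 1, a log2 ratio of -1.20.

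The leading cofactors of SRF were read above Srf itself. Of 8 SRF cofactor genes, 6 were expressed and 2 were at 0 in both libraries. By TMM-scaled counts 0 of the 6 expressed cofactors differed by 2-fold or more, against 4.92% of protein-coding genes higher and 5.57% lower. Mrtfa, an actin-sensing coactivator, had 33.1 TPM in replicate 2 and 21.7 TPM in replicate 1. Elk4, a ternary complex factor, had 37.1 and 14.3 TPM, and Mrtfb, the relative of Mrtfa, had 20.7 and 11.0 TPM in the same libraries. Of 12 actin and cytoskeletal genes known as SRF targets, 9 were expressed, led by Actb with 242 TPM in replicate 2 and 151 TPM in replicate 1 and by Actg1 with 143 and 96.5 TPM. Flna, which crosslinks actin filaments, had 87.5 TPM in replicate 2 and 146 TPM in replicate 1, a log2 ratio of -1.84. Of the 11 genes of that list with enough counts, only Flna was past 2-fold.

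Partners and brakes of the EGR and NR4A proteins were modest. Of 4 EGR relatives and NAB corepressors, Nab1 had 15.1 TPM in replicate 2 and 5.28 TPM in replicate 1 and Nab2 had 4.33 and 3.08 TPM, while Egr4 and Wt1 were at 0 counts in both libraries. Of 5 IER relatives and NR4A partner receptors, 2 were expressed. Rxrb, a retinoid X receptor, a class that pairs with NR4A1 and NR4A2, had 7.22 TPM in replicate 2 and 5.31 TPM in replicate 1, and Ier3ip1, an endoplasmic reticulum protein, had 8.48 and 3.43 TPM. Rxra had 0.930 TPM in replicate 2 and 1.17 TPM in replicate 1, with a log2 ratio of -1.04. Of the 3 genes of this list with enough counts, only Rxra was past 2-fold, against 5.57% of protein-coding genes lower.

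A list of 42 other immediate early genes, with the AP-1, KLF, DUSP and feedback genes among them, gave a wider view. Of these, 33 were expressed. The median over all 42 was 12.2 TPM in replicate 2 and 9.30 TPM in replicate 1, against 5.70 and 3.35 TPM for the 10 genes. Dusp1, a phosphatase that turns MAP kinases off, had 322 TPM in replicate 2 and 126 TPM in replicate 1. Pim1, a survival kinase, had 247 and 150 TPM, and Gadd45b, a stress-response gene, had 189 and 122 TPM in the same libraries. Ier3, the highest of the 10 genes by mean, was therefore below the 3 leading genes of that list, and by mean it was below further genes of the list too. Of the 38 genes of the list with enough counts, 0 were higher by 2-fold in replicate 2 and 2 were lower. Over all tested protein-coding genes the shares were 4.92% and 5.57%. The 2 lower genes were Klf10 (2.57 TPM in replicate 2 and 2.73 TPM in replicate 1, log2 ratio -1.13) and Npas4 (0.36 and 0.6 TPM, log2 ratio -1.55).

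**Figure D5:**
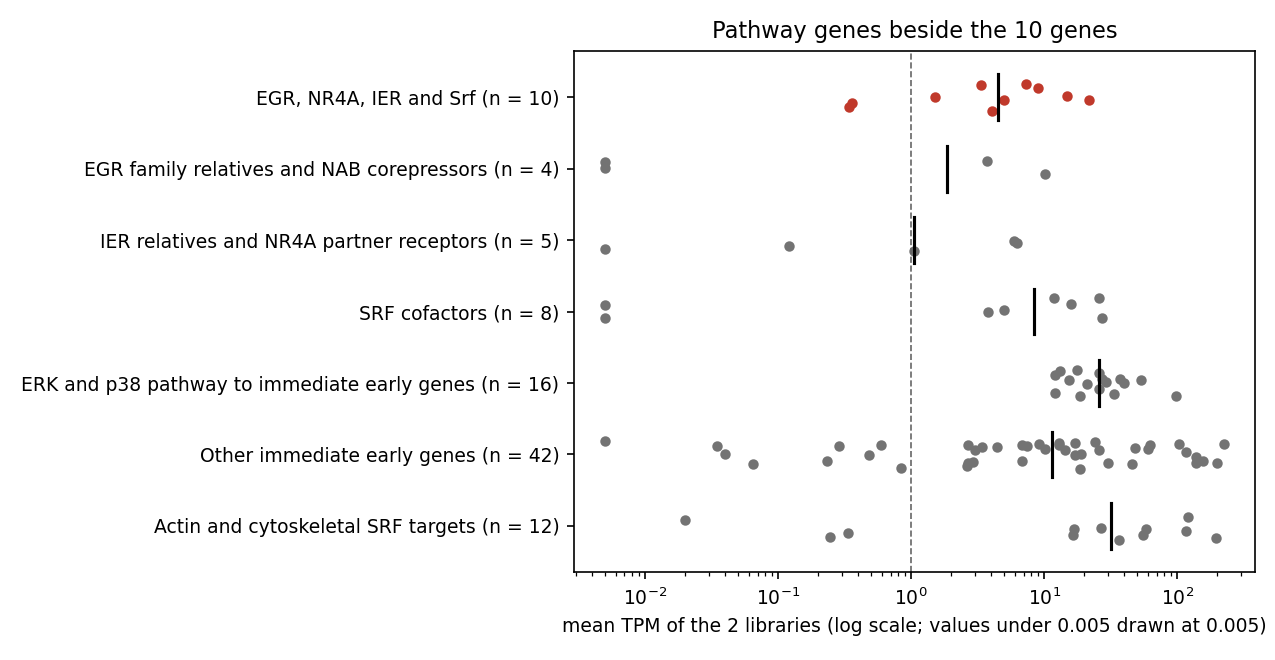
Mean TPM of the 2 libraries (log axis) for each gene of the 10 genes (red) and of the other lists (grey), with a bar at each list's median; genes under 0.005 TPM are drawn at 0.005. The 10 genes lie between 0.340 and 21.9 TPM, and all 16 genes of the ERK and p38 route lie above 1 TPM.

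The genes nearest to the 3 most abundant members in level, measured as the distance in log2(TPM + 1) over the 2 libraries, were Gpd2 and St13 for Ier3, Rps6 and Iqgap2 for Ier5, and Hvcn1 and Laptm5 for Ier2. Gpd2 had 29.2 TPM in replicate 2 and 14.7 TPM in replicate 1, and Rps6 had 17.6 and 12.3 TPM. With 2 libraries, many genes lie close by this measure, and the likeness is one of level.

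The labelled cell type was checked by markers. Of 10 macrophage markers, 9 were expressed, and their summed level was 494 TPM in replicate 2 and 310 TPM in replicate 1; Fcgr1, with 2.09 TPM in replicate 2 and 0.930 TPM in replicate 1, fell short of the threshold. The leading macrophage markers were Adgre1, with 171 TPM in replicate 2 and 80.2 TPM in replicate 1, Cd14 with 117 and 68.1 TPM, and Mertk with 68.9 and 39.9 TPM. By TMM-scaled counts 2 of the 10 macrophage markers were lower by 2-fold or more in replicate 2, against 5.57% of protein-coding genes. They were Csf1r with 40.7 TPM in replicate 2 and 45.6 TPM in replicate 1 (log2 ratio -1.16) and Itgam with 2.96 and 4.19 TPM (log2 ratio -1.24). Among 31 markers of B cells, T cells, neutrophils, fibroblasts, endothelium and dendritic cells, 0 were expressed in both libraries. Their summed levels per cell type ran from 0.190 to 2.57 TPM in replicate 2 and from 0.0700 to 1.51 TPM in replicate 1. The leading markers of these types were Ms4a1, Cd79b and Ebf1 for B cells, Cd4, Lck and Cd3g for T cells, S100a8, Ltf and S100a9 for neutrophils, Cdh5, Col1a1 and Col1a2 for fibroblasts and endothelium, and Zbtb46, Xcr1 and Clec9a for dendritic cells, each at 1.51 TPM or less in each library. Lck had 20 counts in replicate 2 and 0 in replicate 1, and Cdh5 had 9 and 19 counts (log2 ratio -2.11), both past 2-fold by TMM-scaled counts. Pax5, Cd3e, Cd3g, Cd8a, Trac, Elane and Mpo were at 0 TPM in both. In a bulk library, fewer cells that transcribe a gene and less RNA per cell cannot be told apart.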

How the data were processed

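Total RNA from the chromatin fraction of lipid A-treated macrophages was sequenced as 2 libraries of 1 group. For each library the authors deposited estimated (expected) counts, TPM and FPKM per gene, and counts and TPM per transcript, made by aligning reads to the GENCODE M21 transcripts of mm10, per the text deposited with each library; the gene table also holds the authors' credibility bounds and the posterior SD of each count. The second quantification, deposited estimated counts and TPM per transcript, was made from the reads and a transcript index. Tools, versions and any use of strand are not named in the sources used here. Both the 10 genes and the gene lists were chosen with earlier results of these data known.

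Rows without an annotated gene (26345 rows, 0.277% of counts in replicate 2 and 0.409% in replicate 1) were left out. Expected counts were rounded to whole numbers, scaled by TMM (edgeR 4.0.16, R 4.3.3; factors 1.24 for replicate 2 and 0.810 for replicate 1, from genes whose counts summed to at least 20) and compared as a log2 ratio with a prior count of 0.5. The second quantification was summed per gene and held 49747150 counts in replicate 2 and 38966958 in replicate 1. With 1 group, no p-value was computed. Genes outside the 10 were named where they were among the 3 highest of a list by mean TPM, past 2-fold between the libraries, or the 2 nearest in level to a leading gene. Other genes, namely neighbours on the chromosome and list genes at 0 or under the threshold, were named after their values were seen. Counts carry no molecular identifiers, so Poisson intervals cover counting error only. Alternatives were other TPM thresholds, DESeq2 (1.42.0) size factors, library size only, no count filter, a prior count of 5, FPKM, TPM of protein-coding genes only, the second quantification and leaving out each library.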

Additional observations from a re-analysis of the deposited data

How the results depend on the processing

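The number of the 10 genes at or above the TPM threshold was 8 and stayed between 7 and 9 under every threshold, quantification and library tried. The number past 2-fold was 1 except with library size only, where it was 2 because Nr4a3 joined Nr4a2 at a log2 ratio of 1.11, and where 22% of protein-coding genes were higher by 2-fold or more and 0.765% lower, against 4.92% and 5.57% by TMM. In the second quantification the 1 gene was Egr2 and not Nr4a2, with 2.97% of protein-coding genes higher and 5.94% lower. The median TPM of the 10 genes, each averaged over the libraries, was 4.52 in the gene table, 6.97 in the second quantification and 23.4 when TPM was rescaled to protein-coding genes only. The median share of TPM on retained-intron and processed-transcript models was 42.2%, and it was 10.5% by expected counts, which are not divided by the length of the model, and 67.5% in the second quantification, whose cause was not tested. Leaving out each library in turn gave 19.1% to 36.6%. No paired analysis was possible because there is only 1 group. Depth limits Egr3 and Nr4a2, whose counts were 55 or fewer in each library, and nothing here shows what lipid A changed, since no untreated library was analysed here.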
